A study of Caenorhabditis elegans with 48 samples.

Results

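The comparison concerned *Caenorhabditis elegans* larvae held for a long time in L1 arrest, and asked what differed between the *Peft-3::TIR1; ama-1::AID* strain (LRB389) and the *Peft-3::TIR1* strain (CA1200) when no auxin was given. The 8 libraries were chosen by their labels alone: 4 replicates of each strain, collected at 132 h with ethanol, out of 48 libraries in the series. Both strains carry *ieSi57* on chromosome II, which drives the auxin receptor TIR1 fused to mRuby from the *eft-3* promoter in somatic cells, with the *unc-54* 3′ end and *Cbr-unc-119(+)* as marker. LRB389 also carries *ama-1(syb1513)* on chromosome IV, an auxin-inducible degron with linkers and FLAG at the C terminus of AMA-1. The allele was made in another strain, backcrossed to N2 and crossed into CA1200. The larvae hatched without food in S-basal, received ethanol at 36 h and were collected whole 96 h later. LRB389 is called the tagged strain and CA1200 the untagged strain. Other libraries of the series were set beside them. These were both strains at 36 h and at 132 h with 100 µM auxin given from 36 h. The germline TIR1 strains LRB387 (*Pgld-1::TIR1; ama-1::AID*) and CA1352 (*Pgld-1::TIR1*) were read at the same times. The tagged strain grows more slowly, and its embryos came from gravid adults picked to more plates, whereas the other strains were started from L4 larvae, so strain and parental handling cannot be told apart.

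AMA-1 is the largest subunit of RNA polymerase II, the enzyme that transcribes protein-coding genes. The TIR1 protein of plants joins the SCF ubiquitin ligase of the host cell and, when auxin is present, marks degron-tagged proteins for the proteasome. A tagged strain without auxin carries every component of this system except the ligand. L1 arrest is a developmental standstill of larvae that hatch without food. The larvae survive for days on stores such as fat, glycogen and trehalose, with altered insulin-like signaling, and their mRNA population shifts as arrest goes on.

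Total counts on genes were 9254611 to 13832712 in the tagged and 8752969 to 12312449 in the untagged libraries. Protein-coding genes took 88.4% to 95.3% of these in the tagged and 79.3% to 94.8% in the untagged strain. Ribosomal RNA took 2.68% to 9.52% and 3.20% to 18.4%, the highest value being untagged replicate 3. Spike-in RNA took 1.50% to 2.44% and 1.64% to 2.16%. Genes with more than 10 counts numbered 12319 to 12881 in the tagged and 11917 to 12608 in the untagged libraries, which overlap. Exact permutation tests of 8 such measures cannot settle a difference, since 4 against 4 libraries allow a smallest p of 0.0286, or 0.229 once adjusted over the 8. The mean distance between libraries of different strains was 1.232 times that within strains, which reached that smallest p (one-sided). Levels are given as CPM, the counts of a gene relative to the library's total on protein-coding genes. They compare a gene between libraries, not genes of different length with each other.

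Of 15549 protein-coding genes tested, 1031 (6.63%) were higher and 917 (5.9%) lower in the tagged strain at an adjusted p under 0.05, 1948 (12.5%) in all. The counts of called members in the gene lists below are to be read against these shares. Fold changes are log2 ratios of tagged over untagged with their standard error from edgeR's quasi-likelihood test, and adjusted p-values are by Benjamini and Hochberg over all genes tested. Unless time is named, genes said to rise or fall were higher or lower in the tagged than in the untagged strain. At an unadjusted p under 0.05 there were 3825 genes, and the median over all genes was 0.12. Most changes were moderate. On the log2 scale, the median size was 0.87 among the genes that rose and 0.78 among those that fell. At least 1 on the log2 scale was reached by 415 and 258 genes, and at least 2 by 83 and 35. The CPM values of the 2 strains did not overlap for 765 of the genes that rose and 851 of those that fell. Over all genes, every tagged library lay above every untagged library for 1234 genes (7.94%) and below for 1584 (10.2%).

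The number of calls depended on the scale and on single libraries. With library sizes set by the spike-in RNA instead of the upper quartile, 24 genes were higher and 35 lower. With tagged replicate 3 left out, 616 were higher and 595 lower, and with untagged replicate 1 left out the counts were 658 and 723. Without both replicate 3 libraries, 1 of which held most ribosomal RNA, they were 373 and 383. Of the 1948 genes, 1195 to 1813 stayed called in the 8 fits that each left out 1 library, and none changed sign. With spike-in library size the median over all genes was 0.061, against 0.118, and no named gene changed sign. Of 160 genes named by the rule given below, however, 137 lost their call on that scale. Why fewer genes passed on that scale was not tested. On the upper-quartile scale, changes are by definition relative to the bulk of the mRNA and not absolute amounts per larva.

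The tagged gene itself was read first. *ama-1* (chromosome IV, 4248070 to 4258169, WBcel235) had 290, 594, 435 and 636 CPM in tagged replicates 1 to 4 and 669, 733, 839 and 892 in the untagged. Every tagged library lay below every untagged library, although the test gave -0.60 ± 0.21, adjusted p = 0.0504, just above the threshold. The adjusted p ranged from 0.00388 to 0.543 over 19 alternatives and passed in 13 of them, among them the fit with replicate number as a block (log2 fold change -0.64, adjusted p = 0.00898). In the germline TIR1 strains at the same time, *ama-1* had 526 ± 134 CPM in LRB387 and 566 ± 128 CPM in CA1352. At 36 h the somatic strains had 320 ± 56.7 CPM tagged and 262 ± 34.4 CPM untagged (log2 fold change 0.21 ± 0.21, adjusted p = 0.896).

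The genes that donated parts to the transgene were measured too, since both strains carry it. *unc-54*, the major myosin heavy chain of body wall muscle, had 1837, 2147, 3238 and 2450 CPM in the tagged and 825, 1251, 1095 and 972 in the untagged strain (log2 fold change 1.31 ± 0.24, adjusted p = 0.000199). Its reads cannot be told from those of the transgene's *unc-54* 3′ end. *eef-1A.1*, the elongation factor gene whose promoter *eft-3* drives TIR1, had 24940, 19680, 28360 and 19780 CPM against 18190, 19600, 18410 and 17310 (log2 fold change 0.42 ± 0.14, adjusted p = 0.0296). It overlaps *F31E3.12*, and its call was lost without tagged replicate 1 or 3, untagged replicate 1, 3 or 4, and with TMM scaling. *unc-119* had -0.70 (adjusted p = 0.151). The fusion transcript itself was not analysed here.

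**Figure D1:**
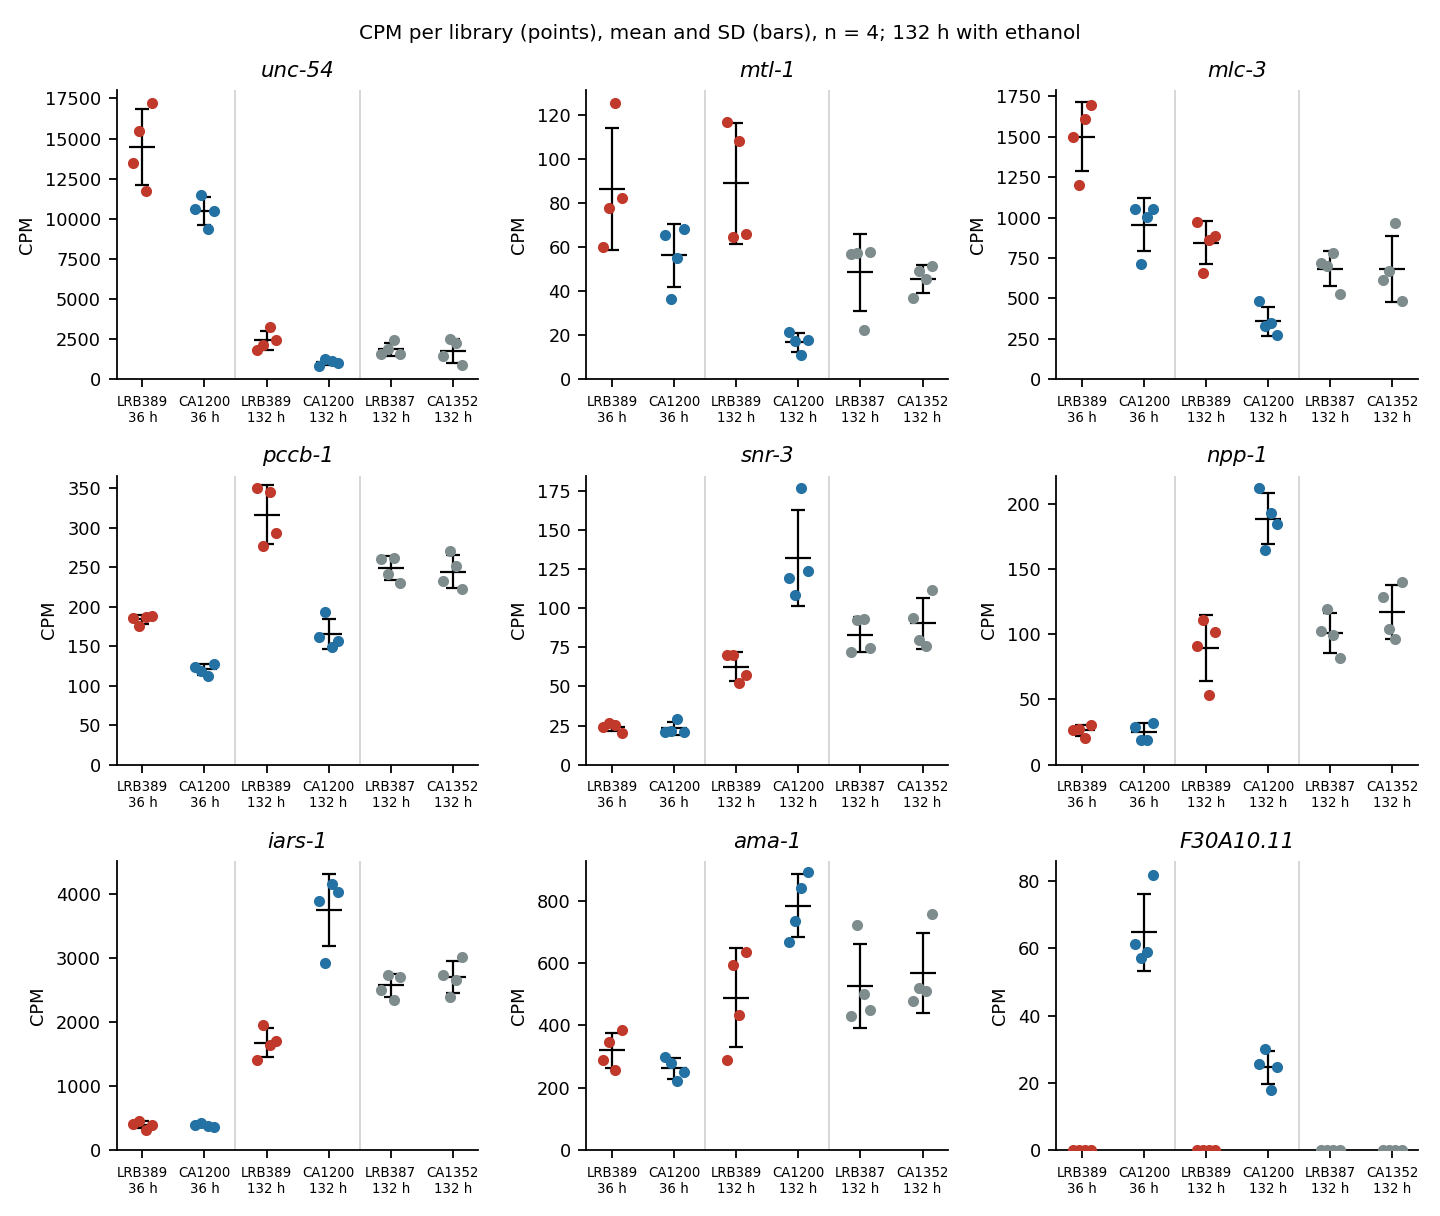
CPM (y axis, linear, from 0) of 9 genes in 6 groups of 4 libraries: LRB389 and CA1200 at 36 h, then LRB389, CA1200, LRB387 and CA1352 at 132 h with ethanol. Points are libraries and bars the mean and SD. At 132 h *unc-54*, *mtl-1*, *mlc-3* and *pccb-1* were higher in LRB389 than in CA1200, and *snr-3*, *npp-1* and *iars-1* lower, without overlap, while *F30A10.11* was at 0 in LRB389.

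Genes of the transcription machinery were lower in the tagged strain where they passed the test. Of 11 measured subunits of RNA polymerase II, 0 rose, 4 fell and 7 did not pass the test, with a median of -0.51 against 0.12 over all genes. None of the 11 was above 0. *rpb-5*, a subunit shared with the other nuclear RNA polymerases, had 106, 142, 103 and 93.4 CPM in the tagged and 210, 190, 218 and 170 in the untagged libraries (log2 fold change -0.75 ± 0.16, adjusted p = 0.00119). *rpb-8*, another shared subunit, had 53.3, 68.5, 39 and 47.5 against 79.3, 103.6, 95.8 and 87.5 CPM (log2 fold change -0.74 ± 0.18, adjusted p = 0.00437). In both genes every tagged library was below every untagged one. *rpb-3* (-0.61 ± 0.17, adjusted p = 0.0093) and *rpb-2* (-0.56 ± 0.19, adjusted p = 0.0394) also fell. The call of *rpb-3* was lost without tagged replicate 1 (adjusted p = 0.065) or tagged replicate 3 (adjusted p = 0.0567), and that of *rpb-2* without tagged replicate 1 or 3 or untagged replicate 2, 3 or 4 (adjusted p = 0.0651 to 0.176).

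Of 25 kinases of the polymerase tail and elongation factors, 0 rose, 5 fell and 20 did not pass the test (median -0.29). The best supported were members of the PAF1 complex, which travels with elongating polymerase. *ctr-9* had 172, 318, 178 and 268 CPM against 416, 355, 405 and 402 (log2 fold change -0.69 ± 0.15, adjusted p = 0.000977). *leo-1* (-0.68 ± 0.17, adjusted p = 0.00438) and *cdc-73* (-0.77 ± 0.20, adjusted p = 0.00674) fell by similar amounts, as did *cit-1.1*, a cyclin T of the kinase that releases paused polymerase (-0.73 ± 0.20, adjusted p = 0.00893). *ctr-9*, *leo-1* and *cit-1.1* overlap *sod-4*, *B0035.21* and *C06G4.6*. How counting treated strand is not given in the sources used here, so reads of overlapping genes may be shared.

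Many genes of pre-mRNA splicing, nuclear transport and translation were lower in the tagged than in the untagged strain. These 4 lists were written after values had been seen, so their direction is a description. Of 46 spliceosomal snRNP proteins, 2 rose, 24 fell and 20 did not pass the test (median -0.58). Those that rose were *lsm-5* (1.01, adjusted p = 9.01e-05) and *sft-4* (0.52, adjusted p = 0.00686), the latter a cargo receptor of the secretory pathway that the list took in by name. *lsm-5* lies in the chromosome V segment described further on. *snr-1*, which encodes a core Sm protein, had 271, 345, 223 and 241 CPM in the tagged and 626, 511, 691 and 573 in the untagged strain (log2 fold change -1.07 ± 0.16, adjusted p = 6.52e-06). *snr-3* had 70.3, 70.3, 52.1 and 57.4 CPM in the tagged against 132 ± 30.5 CPM (SD, n = 4) in the untagged strain (log2 fold change -1.001 ± 0.15, adjusted p = 1.48e-05), and *snr-6* (-1.11 ± 0.19, adjusted p = 7.77e-05) and *prp-31* (-0.99 ± 0.17, adjusted p = 8.93e-05) changed alike. Groups did not overlap for any of these 4 genes. *snr-1*, *snr-3* and *snr-6* overlap *Y116A8C.43*, *plpp-1.2* and *pie-1*.

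Of 40 nuclear pore and import genes, 0 rose, 21 fell and 19 did not pass the test (median -0.49). *ran-1*, the GTPase that sets the direction of nuclear transport, had 456, 686, 398 and 427 CPM in the tagged and 1203, 967, 1197 and 1078 in the untagged strain (log2 fold change -1.097 ± 0.16, adjusted p = 5.55e-06), and overlaps *rib-2*. The nucleoporin *npp-1* had 90.7, 111, 53.2 and 101 against 212, 165, 193 and 184 CPM (log2 fold change -1.02 ± 0.17, adjusted p = 3.96e-05). *npp-5* (-0.90 ± 0.15, adjusted p = 6.9e-05) and *npp-4* (-1.199 ± 0.22, adjusted p = 0.000213), 2 further nucleoporins, were lower in every tagged library too.

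Of 32 aminoacyl-tRNA synthetases, which load tRNAs with amino acids, 2 rose, 13 fell and 17 did not pass the test (median -0.19). The isoleucyl enzyme *iars-1* had 1410, 1960, 1641 and 1707 CPM in the tagged and 3885, 2919, 4149 and 4033 in the untagged strain (log2 fold change -1.08 ± 0.14, adjusted p = 5.02e-07). It overlaps *mpz-5*. The prolyl, glycyl and asparaginyl enzymes *pars-1* (-1.05 ± 0.18, adjusted p = 4.73e-05), *gars-1* (-0.76 ± 0.13, adjusted p = 5.28e-05) and *nars-1* (-1.02 ± 0.17, adjusted p = 6.15e-05) were also lower. Of 33 translation initiation factors, 2 rose, 15 fell and 16 did not pass the test (median -0.41). *eif-1.A* had 458, 686, 440 and 506 CPM against 1012, 990, 1175 and 1073 (log2 fold change -0.95 ± 0.14, adjusted p = 5.09e-06), and *eif-2beta* had 144, 189, 114 and 148 against 261, 273, 277 and 244 (log2 fold change -0.76 ± 0.12, adjusted p = 3.4e-05). *eif-3.J* (-0.84) and *eif-2Bepsilon* (-0.78) fell as well (adjusted p = 0.000668 and 0.000741).

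Ribosomal protein genes did not follow the initiation factors. Of 82 genes on a list made by name, 6 rose, 0 fell and 76 did not pass the test (median 0.26), against 6.63% higher and 5.9% lower over all genes. For LRB387 over CA1352, the germline pair at 132 h with ethanol, the median of the list was 0.25, against 0.01 over all genes. In the somatic pair at 36 h it was -0.16. The list also holds *rpa-1*, *rpa-2* and *rpa-4*, genes of replication protein A, none of which passed. *rpl-38* lies in the chromosome V segment described further on, and had 1093, 801, 1163 and 814 CPM in the tagged against 526, 503, 640 and 481 in the untagged strain (log2 fold change 0.94 ± 0.18, adjusted p = 0.000364). The calls of *rps-2*, *rps-4* and *rpl-20* (0.44, 0.47 and 0.48, adjusted p = 0.0246, 0.0253 and 0.0348) were each lost in 5 of the 8 fits without 1 library. For *rps-2* these were the fits without tagged replicate 1 or 3 or untagged replicate 1, 3 or 4 (adjusted p = 0.0568 to 0.228), for *rps-4* without tagged replicate 1 or 3 or untagged replicate 1, 3 or 4 (adjusted p = 0.0554 to 0.233), and for *rpl-20* without tagged replicate 1 or 3 or untagged replicate 1, 3 or 4 (adjusted p = 0.0628 to 0.227).

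A few factors of mRNA decay and of the SCF ligase changed. Of 28 mRNA decay factors, 0 rose, 4 fell and 24 did not pass the test (median -0.20). *edc-3*, an enhancer of decapping, had 69.4, 88, 65.5 and 80 CPM against 157, 128, 139 and 138 (log2 fold change -0.82 ± 0.17, adjusted p = 0.000852), and *pab-2*, a poly(A)-binding protein, had 626, 709, 539 and 739 against 1179, 920, 1131 and 1306 (log2 fold change -0.72 ± 0.16, adjusted p = 0.00195). The nuclear exonuclease *xrn-2* was at -0.61 ± 0.17, adjusted p = 0.00995, a call lost without tagged replicate 1 (adjusted p = 0.0522). Of 10 SCF subunits, with which TIR1 acts, 1 rose, 2 fell and 7 did not pass the test. The cullin *cul-1* had 111, 147, 92.4 and 129 CPM in the tagged and 191, 177, 184 and 220 in the untagged strain (log2 fold change -0.62 ± 0.15, adjusted p = 0.00351). The RING subunit *rbx-1* fell (-0.64 ± 0.16, adjusted p = 0.00505) and the adaptor *skr-1* rose (0.35 ± 0.11, adjusted p = 0.0309), the latter lost without tagged replicate 1 or 3 or untagged replicate 1, 2, 3 or 4 (adjusted p = 0.0528 to 0.133). Of 33 proteasome subunits, 0 rose, 1 fell and 32 did not pass the test. The subunit that fell was *pbs-2* (-0.56 ± 0.18, adjusted p = 0.0287), lost without tagged replicate 1, 3 or 4 or untagged replicate 1 (adjusted p = 0.0681 to 0.107).

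Most body wall muscle genes rose in the tagged strain. Of 20 measured, 12 rose, 1 fell and 7 did not pass the test, with a median of 0.72. The gene that fell was *unc-60*, an actin-severing cofilin (-0.99, adjusted p = 0.000374). *mlc-2*, a regulatory myosin light chain, had 893, 521, 852 and 728 CPM in the tagged and 260, 173, 218 and 137 in the untagged libraries (log2 fold change 2.03 ± 0.28, adjusted p = 2.03e-06). Its sister gene *mlc-1* had 382, 333, 352 and 458 against 158, 130, 141 and 130 CPM (log2 fold change 1.52 ± 0.22, adjusted p = 4.95e-06). These 2 genes are close copies, and reads may be split between them. They also overlap *C36E6.2* and *slc-17.1*. The essential light chain *mlc-3* had 975, 658, 861 and 884 against 482, 328, 345 and 270 CPM (log2 fold change 1.33 ± 0.22, adjusted p = 5.15e-05), and the troponin T gene *tnt-3* had 178, 216, 138 and 325 against 94.2, 108, 65.8 and 82.9 (log2 fold change 1.31 ± 0.23, adjusted p = 7.5e-05). The defining marker *myo-3*, a body wall muscle myosin, had a median of 622 CPM in the tagged and 356 CPM in the untagged strain (log2 fold change 0.76, adjusted p = 0.0142). The summed CPM of the 20 genes ranged from 8981 to 10960 in the tagged and from 5743 to 6579 in the untagged strain. In whole larvae, fewer cells of a type and less RNA per cell cannot be told apart.

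Many enzymes of central metabolism rose. Of 30 genes for starvation metabolism, 9 rose, 0 fell and 21 did not pass the test (median 0.57). *pck-1*, the phosphoenolpyruvate carboxykinase that commits carbon to gluconeogenesis, had 439, 433, 569 and 474 CPM in the tagged and 138, 196, 107 and 183 in the untagged strain (log2 fold change 1.70 ± 0.23, adjusted p = 2.2e-06). The trehalose synthases *tps-1* (0.65 ± 0.15, adjusted p = 0.00269) and *tps-2* (0.75 ± 0.17, adjusted p = 0.00155) and the fatty acid desaturase *fat-3* (0.84 ± 0.19, adjusted p = 0.00198) were higher in every tagged library, and *tps-2* overlaps *F19H8.2* and *arl-3*.

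Of 31 enzymes of the TCA cycle and propionate breakdown, a list written after values had been seen, 15 rose, 0 fell and 16 did not pass the test (median 0.41). The subunits of propionyl-CoA carboxylase changed together. *pccb-1* had 351, 276, 346 and 293 CPM against 161, 193, 150 and 157 (log2 fold change 1.02 ± 0.14, adjusted p = 1.15e-06) and overlaps *wrt-2*, and *pcca-1* had 254, 259, 303 and 246 against 136, 166, 117 and 144 (log2 fold change 1.000 ± 0.14, adjusted p = 3.58e-06). The aminotransferase *got-2.2* (1.25 ± 0.19, adjusted p = 9.67e-06) and the aconitase *aco-1* (0.76 ± 0.12, adjusted p = 1.48e-05) rose as well. Of 16 genes for proteins that bind fatty acids and retinol, from another list of that kind, 8 rose, 0 fell and 8 did not pass the test (median 1.23). *far-1* had 1431, 968, 1934 and 873 CPM in the tagged and 485, 604, 542 and 362 in the untagged strain (log2 fold change 1.49 ± 0.26, adjusted p = 7.77e-05). *far-6*, *lbp-2* and *lbp-1* rose by 1.52, 1.40 and 1.23 (adjusted p = 0.000148, 9.64e-05 and 0.000782).

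Genes of the intestine and of protein digestion rose where they passed. Of 19 intestine genes, 8 rose, 0 fell and 11 did not pass the test (median 0.65). *vha-6*, a proton pump subunit of the gut lumen, had 146, 132, 120 and 156 CPM against 57.3, 83.8, 61.1 and 88.5 (log2 fold change 0.99 ± 0.24, adjusted p = 0.00312), and *ifc-2*, an intestinal intermediate filament, had 193, 178, 211 and 213 against 116, 160, 126.2 and 132 (log2 fold change 0.65 ± 0.16, adjusted p = 0.00369). The esterase *ges-1*, a classic gut marker, had medians of 13.7 and 7.12 CPM (log2 fold change 1.14, adjusted p = 0.00703). The gut transcription factor *elt-2*, with medians of 71.1 and 58.6 CPM, did not pass (adjusted p = 0.159). Summed intestine CPM ranged from 2159 to 2689 in the tagged and from 1295 to 1774 in the untagged strain.

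Of 38 gut proteases, 11 rose, 0 fell and 27 did not pass the test (median 0.79). The aspartyl protease *asp-4* had 376, 302, 382 and 284 CPM in the tagged and 158, 159, 159 and 118 in the untagged strain (log2 fold change 1.27 ± 0.19, adjusted p = 1.22e-05), and overlaps *R12H7.4*. *asp-6*, a second aspartyl protease, had 1620, 1587, 2722 and 1917 against 697, 974, 891 and 842 CPM (log2 fold change 1.30 ± 0.24, adjusted p = 0.000229). The cathepsin L gene *cpl-1* (0.77 ± 0.14, adjusted p = 0.000108) rose without overlap, as did *cpr-6*, a cathepsin B-like gene (1.13 ± 0.29, adjusted p = 0.0068), whose call was lost without tagged replicate 3 (adjusted p = 0.0522). Of 128 C-type lectins, 10 rose, 1 fell and 117 did not pass the test (median 0.56), and of 72 lysozymes, saposin-like and antimicrobial genes, 3 rose, 1 fell and 68 did not pass the test. Over all genes 6.63% rose and 5.9% fell. *clec-264* had 37.3, 19, 31.9 and 21.6 CPM against 8.49, 11.8, 7.83 and 11.2 (log2 fold change 1.58 ± 0.29, adjusted p = 0.000139) and overlaps *fkb-6*. *clec-62* was at 0.79 ± 0.18, adjusted p = 0.00193. *spp-10*, a saposin-like gene, was at 0.67 ± 0.15, adjusted p = 0.00163, and overlaps *hlh-12*.

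Antioxidant genes and targets of DAF-16, the FoxO factor under insulin-like signaling, rose in part. Of 10 superoxide dismutases, catalases and metallothioneins, 6 rose, 0 fell and 4 did not pass the test (median 0.91). The metallothionein *mtl-1*, a metal-binding protein, had 117, 64.3, 108 and 65.9 CPM in the tagged and 21.3, 17.3, 10.8 and 17.6 in the untagged strain, a 5.31-fold ratio of means (log2 fold change 2.52 ± 0.33, adjusted p = 8.77e-07). *mtl-2* had 5.09, 3.02, 4.78 and 1.48 against 0.525, 0.0987, 0.114 and 1.57 CPM, where untagged replicate 4 lay above tagged replicate 4 (log2 fold change 2.78 ± 0.55, adjusted p = 0.0004). The catalases *ctl-1* (1.06 ± 0.20, adjusted p = 0.00026) and *ctl-2* (1.32 ± 0.27, adjusted p = 0.000645) are near-identical neighbors with *ctl-3*, so the split of reads among them is uncertain. Untagged replicate 3, the library with most ribosomal RNA, held the highest untagged value of both catalases, 79.2 CPM for *ctl-1* and 140 CPM for *ctl-2*, within the tagged range. Of 21 genes of the insulin pathway and DAF-16 response, 7 rose, 1 fell and 13 did not pass the test (median 0.53). *nnt-1*, the mitochondrial transhydrogenase that makes NADPH, had 45, 41.9, 48.7 and 49.8 CPM against 17.6, 25.9, 16.2 and 14.2 (log2 fold change 1.40 ± 0.22, adjusted p = 2.45e-05) and overlaps *C15H9.9*. The glycolytic genes *gpd-2* (0.67) and *gpd-3* (0.65) are near-identical copies and rose alike (adjusted p = 0.00119 and 0.00186).

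Stress genes of other kinds were divided. Of 16 heat shock genes, 2 rose, 1 fell and 13 did not pass the test, with a median of 0.11 that became -0.01 with spike-in library size. *hsf-1*, the heat shock transcription factor, was lower, at 45.9, 65.9, 43.1 and 66.7 CPM against 104.2, 85.5, 110 and 102 (log2 fold change -0.79 ± 0.19, adjusted p = 0.003). The small heat shock gene *hsp-12.3* had 23.2, 7.26, 21.6 and 2.95 CPM against 0.35, 4.94, 1.14 and 1.81, with strains that overlap (log2 fold change 2.83 ± 0.62, adjusted p = 0.00136). Of 20 chaperones of the endoplasmic reticulum and mitochondrion, 5 rose, 1 fell and 14 did not pass the test. Calreticulin, *crt-1*, which overlaps *smut-1*, had 1942, 1698, 1715 and 1660 CPM in the tagged and 1095, 1324, 896 and 1363 in the untagged strain (log2 fold change 0.66 ± 0.16, adjusted p = 0.0043). The mitochondrial Hsp70 gene *hsp-6* (0.55 ± 0.13, adjusted p = 0.00252) and the disulfide isomerase *pdi-6* (0.62 ± 0.15, adjusted p = 0.00354) rose, and *xbp-1*, the factor of the unfolded protein response, fell (-0.41 ± 0.11, adjusted p = 0.00619).

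Of 204 detoxification enzymes, 17 rose, 5 fell and 182 did not pass the test (median 0.42), against 6.63% higher and 5.9% lower over all genes. Those with the most support fell. The cytochrome P450 *cyp-14A5* had 24.3, 35, 18.1 and 28.9 CPM in the tagged and 103, 60.7, 96.8 and 81.6 in the untagged libraries (log2 fold change -1.63 ± 0.22, adjusted p = 2.2e-06), and the glutathione transferase *gst-24* had 154, 298, 47.8 and 185 against 864, 469, 565 and 484 (log2 fold change -1.77 ± 0.38, adjusted p = 0.000901). *gst-6*, of the same family, rose (1.08 ± 0.25, adjusted p = 0.0021), as did *dhs-28*, a peroxisomal dehydrogenase that overlaps *gei-15* (0.97 ± 0.22, adjusted p = 0.0016). Of 47 transthyretin-related genes, a list written after values had been seen, 11 rose, 1 fell and 35 did not pass the test (median 0.45). *ttr-17* had 77.6, 40.9, 69.3 and 50.1 CPM against 11.6, 18.9, 13.4 and 11.7 (log2 fold change 2.19 ± 0.32, adjusted p = 5.16e-06), and *ttr-5* had 60, 29.6, 39.9 and 46.5 against 14.2, 10.8, 9.87 and 7.84 (log2 fold change 2.13 ± 0.31, adjusted p = 6.68e-06), both without overlap.

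Neuropeptide genes formed the list with the most members that rose. Of 101 measured, 29 rose, 0 fell and 72 did not pass the test (median 0.74). *nlp-47* had 47.3, 34.7, 25.9 and 51.8 CPM in the tagged and 16, 14.9, 12.2 and 20.9 in the untagged strain (log2 fold change 1.38 ± 0.23, adjusted p = 4.22e-05), and *nlp-80* had 244, 241, 255 and 265 against 151, 122, 172 and 134 (log2 fold change 0.88 ± 0.17, adjusted p = 0.00026). *flp-8* (1.32) and *nlp-14* (0.88) rose too (adjusted p = 0.000528 and 0.00126). Enzymes that process these peptides were higher too. The proprotein convertase *egl-3* had 1771, 1473, 2237 and 2331 CPM against 1054, 1114, 1049 and 1225 (log2 fold change 0.90 ± 0.17, adjusted p = 0.00026). The carboxypeptidase *egl-21* had 1431, 1130, 1496 and 1764 against 838, 841, 801 and 963 (log2 fold change 0.84 ± 0.15, adjusted p = 0.000122), and *ida-1*, of dense-core vesicles, was at 0.69 ± 0.16, adjusted p = 0.00277. Of 26 neuronal genes, 4 rose, 1 fell and 21 did not pass the test, and 20 were above 0 (median 0.27). Among the markers that did not pass, *rab-3*, of synaptic vesicles, had a log2 fold change of -0.01 (adjusted p = 0.996), and *unc-31*, which primes dense-core vesicles, had 0.19 (adjusted p = 0.606). *unc-33*, needed for axon outgrowth, was the gene that fell, with 167, 261, 161 and 256 CPM in the tagged and 500, 397, 678 and 636 in the untagged strain (log2 fold change -1.31 ± 0.19, adjusted p = 3.58e-06).

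Of 525 serpentine receptors, 18 rose, 2 fell and 505 did not pass the test (median 0.59), against 6.63% higher and 5.9% lower over all genes. The list was made by name, and also holds genes that are no receptors, such as the tyrosine kinase *src-1*, which fell (-0.51, adjusted p = 0.0177) and was looked up after its value was seen. *srj-14* had 21.7, 14.5, 17 and 19.3 CPM against 6.56, 7.21, 5.22 and 6.39 (log2 fold change 1.60 ± 0.40, adjusted p = 0.00462), and *str-264* had 5.09, 2.54, 6.15 and 4.2 against 0, 1.38, 0.794 and 0.482 (log2 fold change 2.84 ± 0.62, adjusted p = 0.00141). *str-264* lies in the chromosome V segment described further on, as do *srw-17*, *srw-19* and *str-38*, which rose too. Of 31 insulin-like peptides, 3 rose, 0 fell and 28 did not pass the test. *ins-17* had 75.8, 61.6, 95.2 and 95.1 CPM against 44.5, 54.1, 55.2 and 60 (log2 fold change 0.70 ± 0.18, adjusted p = 0.00489). The call of *ins-30* (1.54, adjusted p = 0.0209) was lost without tagged replicate 1 or 4 or untagged replicate 2 or 4 (adjusted p = 0.0509 to 0.0784). *ins-4* was at 0 in all untagged libraries and at 4.2, 0, 0.987 and 0.794 CPM in the tagged, too low for a fold.

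F-box, MATH and BTB genes, many of which encode substrate adaptors of ubiquitin ligases, were called no more often than genes in general. Of 319 measured, 3 rose, 14 fell and 302 did not pass the test, against 6.63% higher and 5.9% lower over all genes, and the median of the list was 0.12, close to that of all genes. The 4 members named here fell. *bath-42*, an adaptor of CUL-3 ligases, had 200, 337, 161 and 233 CPM in the tagged and 669, 504, 701 and 620 in the untagged libraries (log2 fold change -1.35 ± 0.17, adjusted p = 4.88e-07). The F-box gene *fbxa-37* had 76.7, 120, 41.7 and 77.7 against 319, 225, 285 and 238 CPM (log2 fold change -1.70 ± 0.26, adjusted p = 1.18e-05). *fbxa-3* (-1.56 ± 0.27, adjusted p = 7.77e-05), which overlaps *fbxc-19*, and *fbxa-79* (-1.25 ± 0.23, adjusted p = 0.00022) fell as well. Of 225 nuclear hormone receptors, 9 rose, 7 fell and 209 did not pass the test (median 0.28). *nhr-84* (-0.99 ± 0.22, adjusted p = 0.00132) and *nhr-154* (-0.82 ± 0.18, adjusted p = 0.00163) were lower, and *nhr-100* (0.71 ± 0.17, adjusted p = 0.00342) and *nhr-1* (0.59 ± 0.15, adjusted p = 0.00466) higher, each without overlap.

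Of 30 Argonautes and small RNA factors, 4 rose, 2 fell and 24 did not pass the test. The microRNA Argonaute *alg-2* had 93.2, 146, 92.3 and 122 CPM in the tagged and 177, 179, 227 and 228 in the untagged strain (log2 fold change -0.77 ± 0.18, adjusted p = 0.00192). Of 144 cuticle collagens, 8 rose, 1 fell and 135 did not pass the test (median -0.03). *col-42* had 1034, 611, 1124 and 610 CPM against 316, 430, 403 and 388 (log2 fold change 1.23 ± 0.23, adjusted p = 0.000179), *col-103*, which overlaps *gst-40*, was at 0.96 ± 0.22, adjusted p = 0.00233, and *col-98* was at 1.03 ± 0.25, adjusted p = 0.00405. Of 36 hedgehog-related genes, 2 rose, 0 fell and 34 did not pass the test. *grd-3* had 17.2, 19.1, 22.7 and 22.7 CPM against 2.8, 7.7, 4.88 and 3.62 (log2 fold change 2.17 ± 0.47, adjusted p = 0.00141), and was already higher at 36 h. Of 12 genes of the mitochondrial genome, 4 rose, 0 fell and 8 did not pass the test. *ND6*, a subunit of respiratory complex I, had 34.6, 21.3, 29.2 and 24.1 against 12.5, 8.29, 14.3 and 12.8 CPM (log2 fold change 1.28 ± 0.24, adjusted p = 0.00025), and overlaps another mitochondrial gene. Of 37 histones, 0 rose, 1 fell and 36 did not pass the test, with a median of 0.06 that became -0.01 with spike-in library size. That histone was *his-72* (-0.48 ± 0.14, adjusted p = 0.0142), lost without tagged replicate 4 (adjusted p = 0.0546). Of 30 cell cycle genes, 0 rose, 1 fell and 29 did not pass the test. The gene that fell was the cyclin-dependent kinase inhibitor *cki-1* (-0.67 ± 0.20, adjusted p = 0.0183), lost without tagged replicate 3 (adjusted p = 0.118) or tagged replicate 4 (adjusted p = 0.0826).

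Markers of other tissues that whole larvae could hold, or that could come from carried-over adults and embryos, were read in the same way. Of 36 germline genes, 1 rose, 2 fell and 33 did not pass the test. *mex-3*, an RNA-binding repressor of translation, had 58.6, 75.6, 31.7 and 54.8 CPM in the tagged and 178, 123, 155 and 181 in the untagged strain (log2 fold change -1.45 ± 0.30, adjusted p = 0.000717), and the cap-binding gene *ife-3*, which overlaps *idpp-2*, was at -0.68 ± 0.15, adjusted p = 0.00182. The P granule genes *pgl-1* (log2 fold change 0.41, adjusted p = 0.543) and *glh-1* (0.08, adjusted p = 0.921) did not pass. Of 19 oocyte and eggshell genes, 2 rose, 0 fell and 17 did not pass the test. The better supported of those that rose was *pqn-59* (0.55 ± 0.15, adjusted p = 0.00703), which overlaps *R119.3*. None of 18 early embryo genes and none of 6 yolk genes passed, and the yolk gene *vit-2* was at 0.889 to 2.51 CPM in the tagged and 1.88 to 22.3 CPM in the untagged strain. Of 30 sperm genes tested, 0 rose, 1 fell and 29 did not pass the test. The gene that fell was *gsp-4*, a phosphatase of sperm, at 2.99, 6.05, 0.911 and 2.5 against 13, 18.7, 13.9 and 16.8 CPM (log2 fold change -2.27 ± 0.78, adjusted p = 0.047), lost without tagged replicate 1, 3 or 4 or untagged replicate 1, 2, 3 or 4 (adjusted p = 0.0694 to 0.164). Summed sperm CPM ran from 71.9 to 121 in the tagged and 125 to 135 in the untagged strain, and summed oocyte CPM from 2560 to 3197 and 1992 to 2472, without overlap. Of 16 pharynx genes, 1 rose, 0 fell and 15 did not pass the test, and of 20 genes of hypodermis and seam, 2 rose, 0 fell and 18 did not pass the test. They were the pharynx list's *nep-1*, a neprilysin (0.90 ± 0.20, adjusted p = 0.00144), and *grd-3* and the junction gene *ajm-1* (0.57 ± 0.14, adjusted p = 0.00526) of the hypodermis list. Summed neuronal CPM ran from 5005 to 6810 and 4343 to 4995. Those of pharynx, hypodermis, germline, early embryo and yolk genes overlapped. The epidermal collagen *dpy-7*, at no more than 2.72 CPM in any of the 8 libraries, was near 0, and the pharynx myosin *myo-2* spread from 490 to 2844 CPM within the tagged strain alone (adjusted p = 0.336). The part of tissue proportions in the results was not tested.

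**Figure D2:**
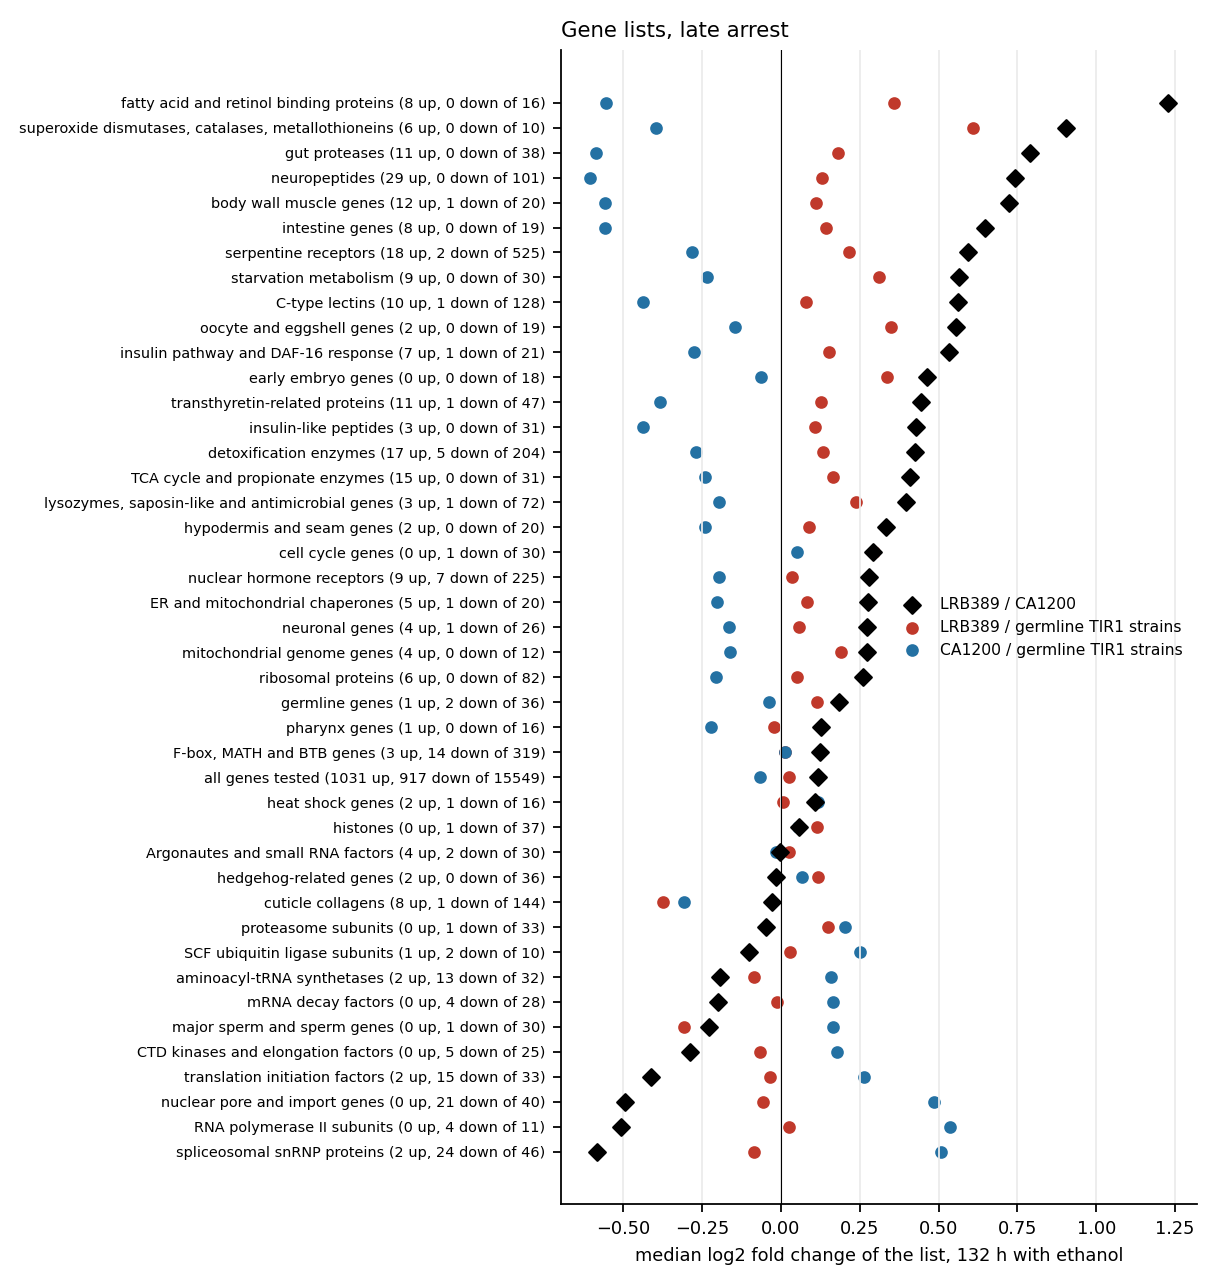
Median log2 fold change of each gene list with at least 10 genes tested (x axis) at 132 h with ethanol: diamonds, LRB389 over CA1200; red circles, LRB389 over the germline TIR1 strains; blue circles, CA1200 over the germline TIR1 strains. Fatty acid and retinol binding proteins (1.23), antioxidant genes (0.91) and gut proteases (0.79) lay farthest right in the strain comparison, and snRNP proteins (-0.58), RNA polymerase II (-0.51) and nuclear pore genes (-0.49) farthest left; the 3 comparisons share libraries.

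Among genes with a mean of at least 5 CPM in the higher strain, adjusted p under 0.05 and no overlap, the 12 largest rises and falls were read singly. *D1086.9* rose most, with 140, 37.2, 87.8 and 38.1 CPM in the tagged and 3.76, 13.8, 0.794 and 1.81 in the untagged strain (log2 fold change 3.93 ± 1.01, adjusted p = 0.00609). The spread within both strains was wide, and the tagged libraries were split between high (replicates 1 and 3) and lower (replicates 2 and 4). *exc-13* had 40.8, 19.6, 34.3 and 19.5 against 3.94, 6.12, 4.65 and 2.89 CPM (log2 fold change 2.79 ± 0.48, adjusted p = 7.06e-05), with the same split. Tagged replicates 1 and 3 also had more counts on genes than 2 and 4 (13287721 and 13832712 against 9354333 and 9254611). Their spike-in factor in the fit was higher too (-0.021 and -0.0485 against -0.1666 and -0.165). *mtl-1* followed this split, *ama-1* followed it in the other direction, and *unc-54* did not. Its cause was not tested. *Y40B10B.1* (3.64), *T06E6.10* (3.498), *ZK1037.6* (3.10), *Y42A5A.3* (2.68, which overlaps *Y42A5A.1*) and *srlf-36* (2.66) also rose, and with *D1086.9*, *exc-13* and *mtl-1* they place 8 of these 12 entries on chromosome V. *T06E6.10* and *ZK1037.6* lie in the segment described further on. Chromosome V holds 3423 of the 15549 genes tested, and 6.78% of its genes rose, against 6.63% over all genes. The call of *srlf-36* was lost without tagged replicate 1 or 3 or untagged replicate 1, 2 or 3 (adjusted p = 0.0685 to 0.2). The others were *dpf-6*, a dipeptidyl peptidase family gene (99.3, 19.1, 43.5 and 57.4 against 10.9, 8.88, 9.08 and 12.7 CPM, log2 fold change 2.47 ± 0.63, adjusted p = 0.00547), the carboxylesterase *cest-9.2* (2.29 ± 0.44, adjusted p = 0.000276), which overlaps *cest-8*, and 2 annotated copies of *clec-15* whose split of reads is uncertain.

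The largest falls were the chromosome I genes *F30A10.14* and *F30A10.11*. Among the others, *Y38E10A.14* was at 3.71, 6.29, 2.12 and 1.02 CPM in the tagged and 19.3, 17.2, 38.4 and 18.7 in the untagged strain (log2 fold change -2.73 ± 0.68, adjusted p = 0.00447). The collagen *col-96* had 2.26, 6.29, 1.14 and 2.5 against 18.7, 8.49, 24.2 and 19.8 CPM (log2 fold change -2.52 ± 0.66, adjusted p = 0.00695), and *cox-14*, for assembly of cytochrome c oxidase, had 2.91, 2.3, 0.38 and 1.02 against 13.6, 6.32, 9.08 and 9.52 (log2 fold change -2.48 ± 0.63, adjusted p = 0.00525), with an overlap to *Y70G10A.4*. The remaining falls each depended on single libraries. *E01G6.1* (-2.58) lost its call without tagged replicate 1 (adjusted p = 0.0587), and *C39D10.7* (-2.67) without tagged replicate 1, 2 or 3 or untagged replicate 4 (adjusted p = 0.0507 to 0.0962). The F-box genes *fbxa-192* (-3.33), *fbxa-145* (-2.48) and *fbxc-55* (-2.42) lost theirs without tagged replicate 1, 3 or 4 or untagged replicate 2, 3 or 4 (adjusted p = 0.0527 to 0.126), without tagged replicate 3 (adjusted p = 0.0706), and without tagged replicate 1, 2 or 3 or untagged replicate 1 (adjusted p = 0.0694 to 0.268). *enu-3.6* (-2.48) did so without tagged replicate 2 (adjusted p = 0.0545) or tagged replicate 3 (adjusted p = 0.0799), and *gsp-4* is given above.

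A locus on chromosome I separated the untagged strain from the other 3 strains of the series. *F30A10.14* (9476597 to 9477181) had 33.2, 26.8, 31.6 and 38.2 CPM in the untagged libraries and 0 counts in all 4 tagged libraries. Against a floor of 3 counts per library (0.293 CPM) it was at least 111-fold lower. *F30A10.11* (9477459 to 9478151) had 25.7, 30, 17.9 and 24.8 CPM and 0 counts, at least 84.0-fold lower (adjusted p = 1.33e-07 and 1.3e-08, with fitted folds that are no bounds). The pattern held at all times. *F30A10.11* was at 0 in all 36 libraries of the other 3 strains and at 17.9 to 81.8 CPM in all 12 of the untagged somatic strain. *F30A10.14* was at 0 in 31 of the 36, with at most 8 counts, and at 25.8 to 87.7 CPM in the 12. The neighbor *calm-1* (9472642 to 9474801) had a mean of 2.21 CPM in the tagged and 8.86 CPM in the untagged strain (log2 fold change -1.89 ± 0.43, adjusted p = 0.00186), and was lower at 36 h too (-2.79, adjusted p = 0.000211). *skr-1* ends next to *calm-1*, at 9472641.

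A stretch of chromosome V stood out in the tagged strain. It was noticed in the data, and its bounds, from *M01B2.10* to *haf-3* (15260890 to 15766172, 505 kb), were set after values had been seen, so it carries no test of its own. Of 24 genes in it with a mean of at least 10 CPM, 22 were above 0 at 132 h (median 0.97) and 14 rose. Against the germline TIR1 strains, all 24 of the tagged strain's values were above 0 (median 0.88, 9 called), while the untagged strain had a median of -0.09. The germline pair had a median of -0.04. Already at 36 h 23 of 24 were above 0 (median 0.77, 5 called). In the 250 kb on either side the medians at 36 h were 0.19 and 0.28.

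The shift showed in every tagged library, for a segment whose bounds were set on these data. As a median deviation from the germline TIR1 strains on the log2 scale, the 4 tagged libraries were at 0.99, 0.86, 0.86 and 0.76 at 132 h, and at 0.75, 1.00, 0.82 and 0.64 at 36 h. The untagged somatic libraries at 36 h and at 132 h with ethanol lay between -0.11 and 0.13. The germline libraries are the reference, so that they lie near 0 follows from the measure. With auxin at 132 h the tagged libraries were at 0.525, 0.449, 0.668 and 0.438, and the untagged at -0.242, -0.141, -0.326 and -0.038. *F21A3.11* had a mean of 97.5 CPM in the tagged and 28.7 in the untagged strain (log2 fold change 1.84, adjusted p = 5.7e-08) and overlaps *srh-276*. The ribosomal protein gene *rpl-38* had means of 968 and 538 CPM, and the cathepsin B-like *cpr-3* had 204, 136, 144 and 144 CPM in the tagged and 43, 49, 53.3 and 49.9 in the untagged libraries (log2 fold change 1.76 ± 0.37, adjusted p = 0.000916). Other members were *F53E4.1* (116 and 44.7 CPM), *Y6E2A.4* (50.1 and 14.9) and the Sm-like gene *lsm-5* (47.6 and 24.8). *haf-3*, an ABC transporter gene that overlaps *str-9*, had a log2 fold change of 0.88 (adjusted p = 0.00517). Among all 95 genes of the segment that were tested, 25 rose and 0 fell at 132 h.

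**Figure D3:**
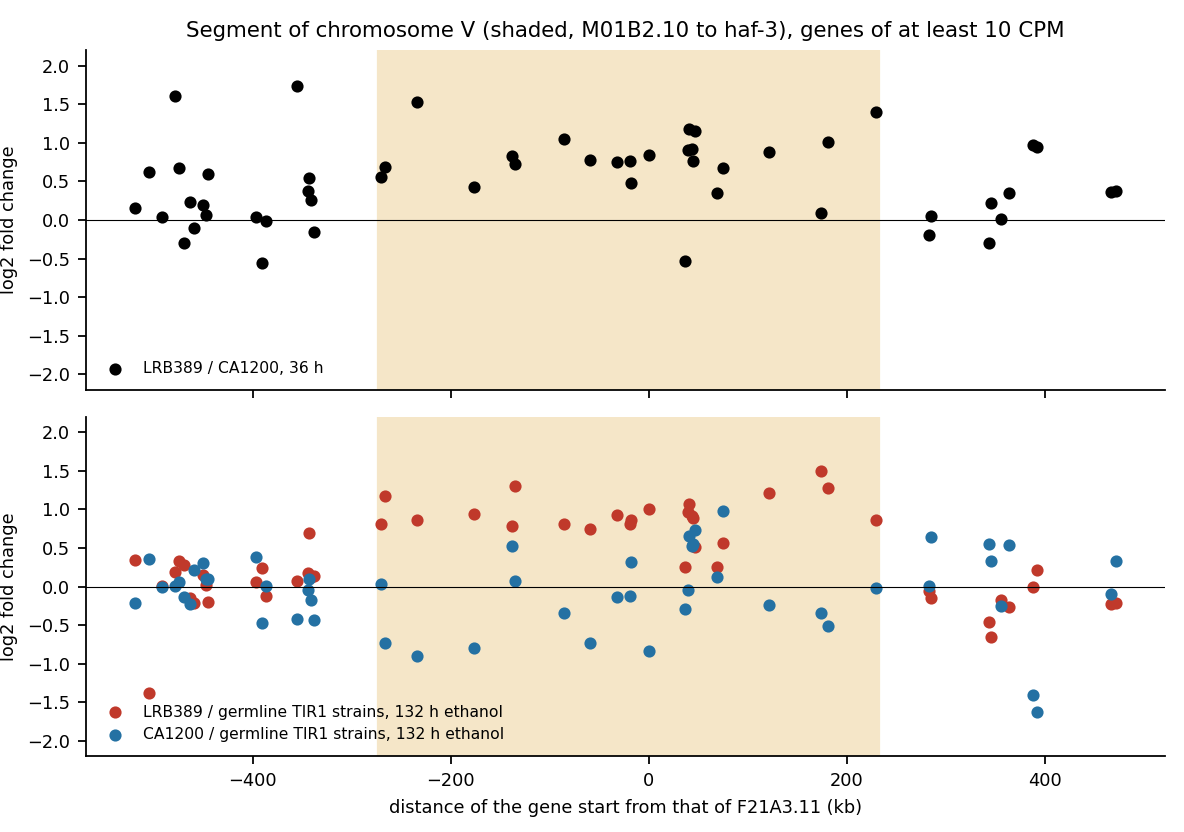
Log2 fold change of single genes (points) along chromosome V by distance in kb from *F21A3.11*. The upper panel shows LRB389 over CA1200 at 36 h. The lower panel shows LRB389 (red) and CA1200 (blue), each over the germline TIR1 strains, at 132 h with ethanol. Inside the shaded 505 kb, 23 of 24 genes in the upper panel were above 0. In the lower panel, 24 of 24 LRB389 values and 10 of 24 CA1200 values were above 0.

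Calls were also counted by chromosome. On X, 249 of 2261 genes rose and 53 fell (2.34%), against 6.63% and 5.9% over all genes. On III 5.37% rose and 8.97% fell, on I 4.79% and 7.75%, and on V 6.78% and 4.44%. Genes near the tagged locus were not called more often. Within 1 Mb of *ama-1*, 9.31% of 290 genes were called, and beyond 4 Mb on the same chromosome 12.2% of 1336.

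At 36 h, before ethanol, few genes differed between the strains: 26 were higher and 9 lower (0.225% of those tested, with 1222 at an unadjusted p under 0.05). The same strain's flasks came from 1 embryo preparation per replicate, so these libraries are not independent of those at 132 h. Of the 35 genes, 17 were called at 132 h in the same direction, and 28 had the same sign. *ZK829.7* was the clearest (log2 fold change 2.16 ± 0.13, adjusted p = 2.34e-17), and fell to 0.53 (adjusted p = 0.00163) at 132 h. *odc-1*, the ornithine decarboxylase of polyamine synthesis, was at 1.42 and 0.86. The catalase *ctl-2* was at 1.27 (adjusted p = 0.0198), and *grd-3* at 2.97 (adjusted p = 0.00391). At 36 h the genes that differed at 132 h had medians of 0.05 (higher) and -0.02 (lower).

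The difference between strains was itself tested against that at 36 h. It was more positive at 132 h for 243 genes and more negative for 355, 598 in all (3.85%). With spike-in library size these counts were 1 and 2, and with DESeq2 376 and 597. *ran-1* (change of -1.48, adjusted p = 0.000151), *bath-42* (-1.48, adjusted p = 0.000225) and *fbxa-37* (-2.35, adjusted p = 0.000333) were among the clearest. *ran-1* had 83.8 ± 18.2 CPM in the tagged and 61.3 ± 9.26 in the untagged strain at 36 h, and means of 492 and 1111 CPM at 132 h. *bath-42* went from 86.3 ± 7.84 and 75.1 ± 4.91 to 233 and 624. For *mtl-1* the change was 1.91 ± 0.44, adjusted p = 0.00799. In *ZK829.7* the difference became smaller (-1.63, adjusted p = 2.53e-08).

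The tagged and untagged germline TIR1 strains were compared in the same way. LRB387 carries *ama-1::AID* and CA1352 does not, and in both TIR1 is driven by the *gld-1* promoter in the germline. With ethanol at 132 h they differed in 1 gene (0.00643%), *rpa-4*, higher in LRB387 than in CA1352 (log2 fold change 2.61, adjusted p = 2.4e-10). In the somatic pair *rpa-4* had 0.04. Over both germline strains together, it had 1.35 in the tagged and 1.31 in the untagged somatic strain. At an unadjusted p under 0.05 there were 404 genes, and DESeq2 called 1 higher and 2 lower. The tag difference was larger or smaller in the somatic than in the germline pair for 225 genes (1.45%), 97 upward and 128 downward. *mtl-1* differed by 2.42 ± 0.45, adjusted p = 0.00346 and *exc-13* by 2.45 ± 0.65, adjusted p = 0.04.

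Set against both germline TIR1 strains together, the tagged somatic strain had 23 genes higher and 13 lower (0.232%, 999 at an unadjusted p under 0.05), and the untagged somatic strain had 646 higher and 566 lower (7.79%). With spike-in library size the counts were 1 and 1 for the tagged and 12 and 2 for the untagged strain. Among the germline libraries, CA1352 replicate 4 held 6.41% spike-in RNA, against 1.69% to 2.09% in the others of its group. Its weight in the counts on that scale was not tested. These comparisons share libraries with the main one and were added after values had been seen. The mean of the germline strains lay between the 2 somatic strains for 916 of the 1031 genes that rose (88.8%) and 908 of the 917 that fell. The genes were chosen for a gap between the somatic strains, which favors another strain lying in it, so these are descriptions. The germline mean was nearer to the tagged strain for 858 and 788 of them. Against the germline strains, the snRNP list had medians of -0.08 (tagged, 1 called) and 0.51 (untagged, 26 higher). Nuclear pore genes had -0.06 (0 called) and 0.49 (22 higher), and RNA polymerase II 0.03 (0) and 0.54 (6). Neuropeptides had 0.13 (0 called) and -0.61 (28 lower). Antioxidant genes lay farther off in the tagged strain, at 0.61 (0 called) against -0.40 (1 lower). For *unc-54* the germline strains had 1863 ± 404 CPM in LRB387 and 1767 ± 743 CPM in CA1352, against 2418 ± 601 in the tagged and 1036 ± 181 in the untagged somatic strain. Their transgene has the *gld-1* and not the *unc-54* 3′ end, so these *unc-54* values are not like for like. For *iars-1* the germline strains had 2571 ± 182 CPM in LRB387 and 2701 ± 255 CPM in CA1352, against 1680 ± 226 and 3747 ± 562. Of the tagged strain's 36 genes, 10 lay in the chromosome V segment and 12 in the first 0.5 Mb of chromosome III. At the latter, *mxl-2* (-1.25 tagged, -0.96 untagged) and *nhr-80* (1.39 and 0.92) differed from the germline strains in both somatic strains.

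The direction of the strain difference was also read against time in arrest, measured in the germline TIR1 strains alone, from 36 h to 132 h with ethanol. There 3748 genes (24.1%) rose and 3753 (24.1%) fell on the upper-quartile scale. With spike-in library size 5818 rose and 1235 fell, with a median of 0.64 over all genes, and the overlaps given next were not computed on that scale. CA1352 replicate 4, with 6.41% spike-in RNA, is among these libraries. Of the 1031 genes higher in the tagged strain, 653 (63.3%) were among those that fell with time and 135 (13.1%) among those that rose. Of the 917 lower genes, 697 (76.0%) were among those that rose with time and 69 (7.52%) among those that fell. As shares of the time lists these are 17.4%, 3.6%, 18.6% and 1.84%. The median change with time was -0.74 over the genes higher in the tagged strain, 0.91 over the lower, and 0.01 over all. Named genes give examples. All 4 named snRNP genes rose with time (2.84 for *snr-1*), as did *iars-1* (2.41) and *bath-42* (1.60), whereas *unc-54* (-3.12) and *mlc-3* (-1.44) fell. Exceptions were *pccb-1* (0.30) and *tps-1* (0.93), which were higher in the tagged strain and above 0 with time. Of the 82 genes on the ribosomal list, 68 fell with time.

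**Figure D4:**
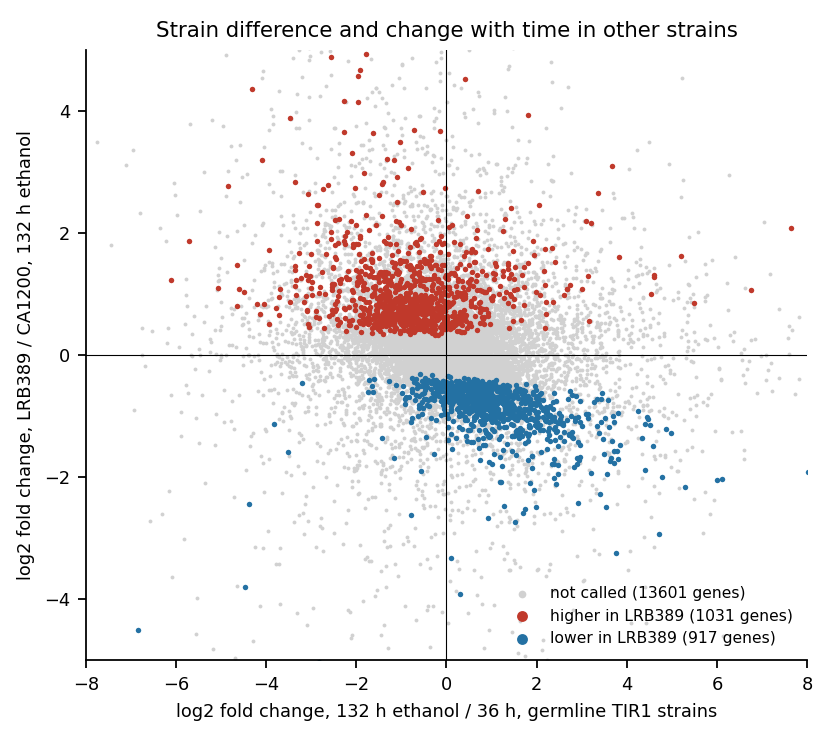
Each point is 1 of 15549 genes. The x axis is the log2 fold change from 36 h to 132 h with ethanol in the germline TIR1 strains, the y axis that of LRB389 over CA1200 at 132 h with ethanol, and red and blue mark the 1031 higher and 917 lower genes; 73 genes lie outside the axes. Red points lie mostly left of 0 and blue points right of 0.

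As a single number per library, each library was projected on the line from the mean of the germline strains at 36 h (0) to their mean at 132 h (1), over log2 CPM of all genes tested. This measure was chosen after values had been seen and carries no test. The tagged libraries were at 0.936, 0.988, 0.863 and 0.958 (mean 0.936 ± 0.053, SD, n = 4), and the untagged at 1.099, 1.04, 1.06 and 1.06 (1.067 ± 0.023). The strains did not overlap. The tagged lay below 1 and the untagged above it. At 36 h the order was the other way, 0.108 ± 0.024 in the tagged and 0.041 ± 0.033 in the untagged strain. The germline strains themselves were at 0.990 ± 0.043 and 1.010 ± 0.059.

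**Figure D5:**
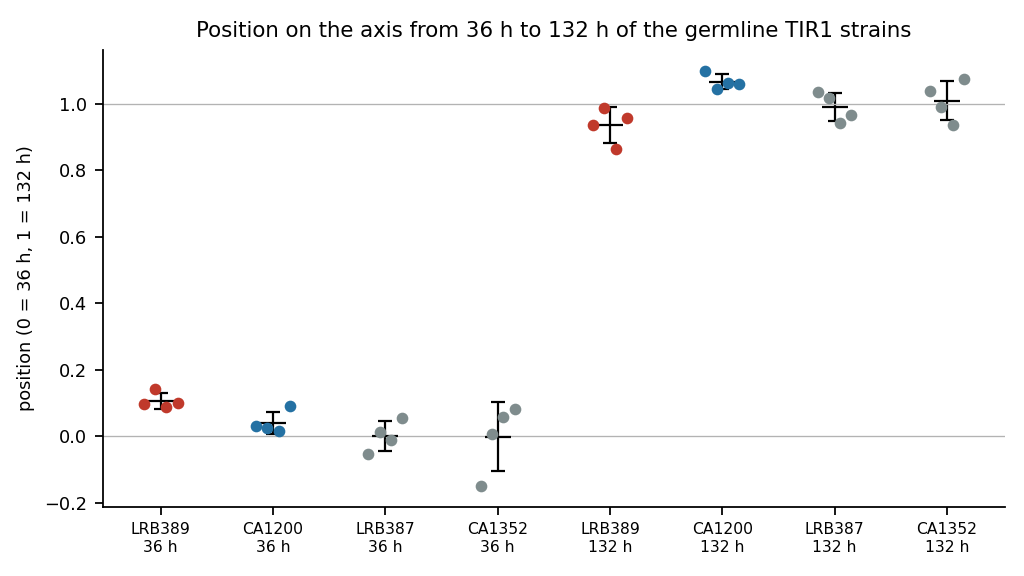
Position of each library (points) on the axis from 36 h (0) to 132 h with ethanol (1) of the germline TIR1 strains, with the mean and SD of 8 groups of 4. At 132 h with ethanol LRB389 was at 0.936 ± 0.053 and CA1200 at 1.067 ± 0.023.

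With 100 µM auxin from 36 h, meant to degrade tagged AMA-1, the strain difference at 132 h comprised 2290 higher (14.7%) and 2419 lower genes (15.6%). This balance belongs to the upper-quartile scale, since with spike-in library size 496 were higher and 7431 lower and the median over all genes was -1.14. The shares that follow are on the upper-quartile scale. The 1031 genes higher without auxin were found on both sides, 271 (26.3%) among the higher and 242 (23.5%) among the lower. The 917 lower genes lay mostly on 1 side, with 393 (42.9%) among the lower and 70 (7.63%) among the higher. Their median with auxin was -0.45, against 0.09 over the genes higher without auxin and 0.11 over all. Single genes differed in this. *iars-1* was at -1.08 with ethanol and at -3.62 ± 0.17, adjusted p = 9.62e-22, with auxin. *unc-54* was at 1.31 and, with auxin, at 0.11 ± 0.30, adjusted p = 0.831. *mtl-1* was at 2.52 and, with auxin, at 0.69 ± 0.38, adjusted p = 0.16. The difference between ethanol and auxin was not tested here.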

How the data were processed

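The authors isolated RNA from whole larvae, added ERCC spike-in RNA by amount of total RNA, selected poly-A RNA and built libraries with 14 or 15 PCR cycles depending on the batch, which is not given per sample. Per their notes, reads were mapped with Bowtie 1.2.2 to WS273 with spike-ins and counted per gene with HTSeq 0.11.2. The deposited values are raw counts per gene, not normalized. The strand setting of the counting is not given in the sources used here.

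From these counts, those protein-coding genes (15549) were tested that exceeded 10 counts in 4 or more of the 48 libraries, with edgeR 4.0.16 (R 4.3.3, limma 3.58.1): upper-quartile scaling, a spike-in factor (W1) from 62 spike-ins by the RUVg formula with k = 1, quasi-likelihood tests over all 48 libraries in 12 groups, and Benjamini-Hochberg adjustment over all genes tested, called at an adjusted p under 0.05. Replicates are called biological in the series' description, and p-values measure the spread among them. Replicate libraries of the groups differed by more than sampling noise. Intervals for counts at 0 use a floor of 3 counts and cover counting error only.

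Named genes are *ama-1* and 3 transgene donor genes, the up to 12 largest rises and falls with a mean of at least 5 CPM and no overlap, and up to 4 called members of each list with the smallest p. Single genes outside this rule, those of the chromosome I and V stretches, at 36 h and in the germline strains, were picked after their values were seen. The members, lists and comparisons were chosen with earlier results of these data known, 7 gene lists, the 2 comparisons with the germline strains and the chromosome V bounds were added after values had been seen, and nothing is supported by their choice. Alternatives changed the scaling, the test (likelihood ratio, DESeq2 1.42.0), the filter, the libraries, the threshold and the replicate block, and left out each replicate in turn. A result for 1 gene is not reported here.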

Additional observations from a re-analysis of the deposited data

Results flagged for a closer look

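Untagged replicate 3 lay far from the other 3 untagged libraries in 3 measures: protein-coding genes took 79.28% of its counts, ribosomal RNA 18.43%, and the 10 most abundant genes 24.12%. Single libraries also stood apart for *fbxa-192* (3.266 CPM in tagged replicate 2, with 0 in the other 3 tagged libraries), *Y38E10A.14* (38.35 CPM in untagged replicate 3) and *fbxc-55* (30.19 CPM in untagged replicate 1). The rule that flagged these gaps passes about 1 in 20 groups of normally distributed values by chance. It was applied to several measures and genes, so some such gaps arise by chance. The 3 measures of untagged replicate 3 share its ribosomal RNA counts.

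The strain difference at 132 h differed from that at 36 h by the test of the difference in 598 genes. Among the genes with the largest changes these were *Y42A5A.3* (2.764 on the log2 scale), *mtl-1* (1.914), *cest-9.2* (2.412), *Y38E10A.14* (-3.711), *C39D10.7* (-4.103) and *E01G6.1* (-3.416).

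The tag difference in the somatic pair differed from that in the germline pair in 225 genes, among them *exc-13* (2.451), *mtl-1* (2.417), *cest-9.2* (2.603) and *F30A10.14* (-14.906, a fitted value for a gene at 0 in the tagged somatic strain and near 0 in both germline strains, and no bound).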

How the results depend on the processing

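The number of genes higher and lower in the tagged strain at 132 h with ethanol stayed within 1.5 times the main 1031 and 917 under 10 analysis alternatives (926 and 1057 with TMM, 1103 and 1249 with DESeq2, 1152 and 995 with the replicate block). It moved with spike-in library size (24 and 35), with a threshold of 0.01 (525 and 563), and with both replicate 3 libraries left out (373 and 383, chosen after seeing the data). Leaving out 1 library gave 616 to 1147 higher and 595 to 999 lower. With spike-in size the other counts of higher and lower genes were 4 and 4 at 36 h, 1 and 2 for the change from 36 h, 496 and 7431 with auxin, 0 and 2 for somatic against germline pair, 5818 and 1235 for time, 1 and 1 for the tagged strain and 12 and 2 for the untagged strain against the germline strains. With DESeq2 they were 80 and 34 at 36 h, 376 and 597 for the change, 216 and 349 for the 2 pairs, 2 lower in the germline pair, 30 lower for the tagged strain and 997 higher for the untagged strain against the germline strains. At 0.01 they were 15 and 4, 45 and 127, 1417 higher with auxin, 22 and 19 for the pairs, 15 higher for the tagged and 320 and 208 for the untagged strain. With only the 16 libraries compared and without W1, 381 were higher for the change. The cause of these moves was not tested, beyond the stricter threshold itself. CA1352 replicate 4 at 132 h with ethanol, with 6.41% spike-in RNA, enters the spike-in counts that use the germline strains at that time. The study's methods describe the strains as bleached in parallel, but no source says that a replicate number marks a shared day. Deviations of same-numbered libraries hardly correlated (0.0304, -0.00426, 0.0527 and 0.0521), and the replicate block changed no named call but that of *ama-1*. The distance between strains relative to that within them, 1.232, was 1.109 with a pseudocount of 0.1 and 1.185 to 1.311 without 1 library. With spike-in size, list medians moved by more than the spread between libraries for elongation factors (-0.341), chaperones (0.21) and early embryo genes (0.246), and changed sign within that spread for heat shock genes (-0.006) and histones (-0.014). No named gene reversed its sign.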
